A study of Oryza sativa with 4 samples.

Results

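The transcripts described here come from 31 nuclear genes of the photosynthetic membrane of rice, out of 57995 loci with a value in each library. They were chosen by locus identifier, with no measured value entering the rule, though earlier results of these data were known when they were chosen. They comprise 6 Lhca and 9 Lhcb genes for light-harvesting proteins, the PsbS gene, 4 genes of the oxygen-evolving complex, 9 genes of photosystem I subunits, and the genes of plastocyanin and of the Rieske protein. All 31 loci were present and all 31 passed the filter on low values. None carries a symbol in the deposited files. For 8 of them a name of the gene was found on the same chromosome in a separate rice gene table, and 7 of those also matched in span to within 10%. For the other 23 the name rests on the gene list itself, and for PsaG the table puts that name on chromosome 5 while the listed locus lies on chromosome 9.

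Seedlings of the genotype Dongjin were grown to 7 days and irrigated either with buffer (1 mM HCl), the control, or with 5 mM S-nitrosocysteine (CysNO), a nitric oxide donor. Leaf poly(A) RNA was sequenced from 2 libraries per group, although the extraction protocol speaks of triplicate samples, and levels are in FPKM (fragments per kilobase of transcript, normalised to sequencing depth). No group received cysteine alone, and the labels name HCl for the control only, so nitric oxide, the rest of the molecule and the buffer cannot be told apart. The labels do not say whether the libraries of a group are separate plants, and the p-values therefore reflect only the spread between these libraries, which may be technical.

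Light is absorbed in the thylakoid by chlorophyll bound to Lhcb proteins around photosystem II and to Lhca proteins around photosystem I. Photosystem II splits water at the oxygen-evolving complex, electrons pass through the cytochrome b6f complex (which holds the Rieske protein) to plastocyanin, and photosystem I passes them on to ferredoxin. The core reaction-centre proteins are encoded in the chloroplast, whereas the antenna proteins and many small subunits are encoded in the nucleus, and their messages are among the most abundant of a leaf.

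No gene of the 31 passed the test in either direction, with limma's moderated test and Benjamini-Hochberg adjustment at 0.05 over all 21123 tested loci. Over all tested loci 4.23% were called, 3.27% as higher and 0.956% as lower in CysNO. At an unadjusted p under 0.05, 2 of the 31 had lower values in CysNO (PsbR and Lhcb7) and 0 had higher ones, where 8.39% of all loci had lower values at that level. The direction was mostly one way. Of the 31 log2 fold changes 28 were below 0, against 51.1% of all tested loci, and their median was -0.49 against -0.01. Both CysNO libraries lay below both controls for 14 of the 31 genes (45.2%, against 24.9% of all loci), for 0 did both lie above (21.5% of all loci), and for 17 the groups overlapped. In bulk leaf RNA, fewer cells of a type and less RNA per cell cannot be told apart. All 31 values of a library come from the same RNA, so the genes are not independent replicates of this direction.

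The median log2 difference between control 1 and control 2 was 0.64, where the median log2 fold change between the group means was -0.49. The first is between single libraries and the second between means of 2, which average out part of the spread, so their sizes are not like for like. Control 1 read above control 2 in all 31 genes, where 62.2% of all loci did, and it was the highest of the 4 libraries in 29 (33.3% of all loci). The ratio of control 1 to control 2 had a median of 1.56 and ran from 1.10 to 2.59. CysNO 2 read above CysNO 1 in 28 of 31 genes (39.4% of all loci), and CysNO 1 was the lowest library in 24 (22.2% of all loci). CysNO 2 read above control 2 in 16 genes and below it in 15, with a median log2 difference of 0.06 (-0.04 over all tested loci). CysNO 1 stood below control 1 by more, with a median log2 difference of -0.98 (0.02 over all tested loci). For 17 of the 31 genes the absolute log2 difference between the controls exceeded the absolute log2 fold change between groups. That comparison is again not like for like, and its share over all tested loci was not computed, so the count is no trait of these genes. With control 1 left out the 31 genes had a median log2 fold change of -0.21, with 19 below 0 while 45.7% of all loci were. Without CysNO 1 it was also -0.21, with 25 below 0 against 60.5% of all loci. Without control 2, and likewise without CysNO 2, it was -0.76.

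**Figure D1:**
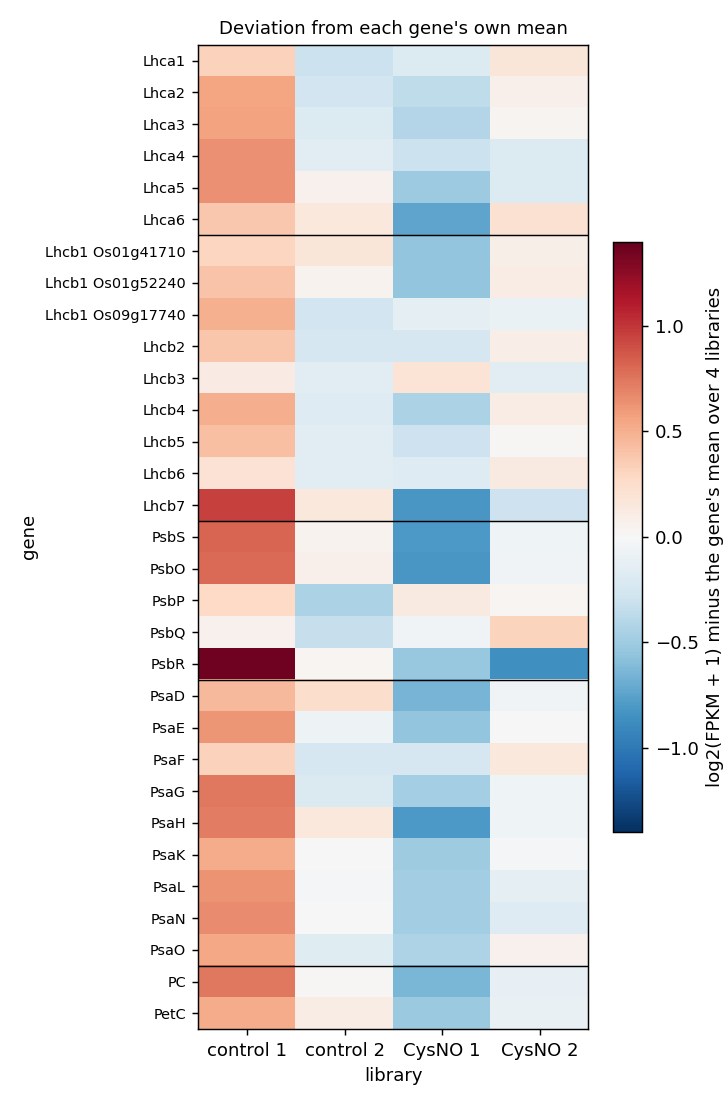
Deviation of log2(FPKM + 1) from each gene's own mean over the 4 libraries (color), with genes in rows, libraries in columns and black lines between complexes. The control 1 column is the highest for 29 of 31 genes, the CysNO 1 column the lowest for 24, and control 2 and CysNO 2 lie between them for most genes.

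Summed over the 31 genes, the level was 16235 FPKM in control 1, 11345 in control 2, 8228 in CysNO 1 and 11546 in CysNO 2. These sums were 2.33%, 1.64%, 1.12% and 1.68% of all FPKM of the respective library. The groups overlap, since CysNO 2 reads above control 2. The mean was 13790 ± 3458 FPKM (SD, n = 2) in control and 9887 ± 2346 (SD, n = 2) in CysNO, a ratio of 0.717. The ratio of control 2 to control 1, within the untreated group, was 0.699. That is a ratio of single libraries and 0.717 a ratio of means of 2, so they are not like for like. With 1 library left out the ratio of CysNO to control ran from 0.597 to 0.871. No test was made on this sum, because an exact permutation of 2 against 2 libraries cannot go below p = 0.333.

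**Figure D2:**
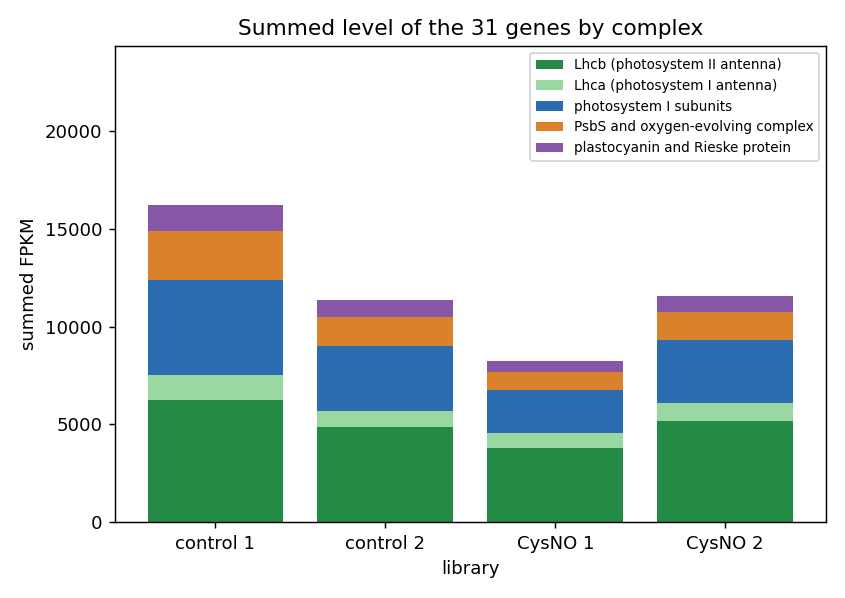
Summed FPKM of the 31 genes in each library, stacked by complex, with 1 bar per library and no error bar. The tallest bar is control 1 (16235 FPKM) and the shortest CysNO 1 (8228), and control 2 and CysNO 2 are of similar height (11345 and 11546).

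The complexes took unequal shares of that sum. The Lhcb genes made up 38.5% and 43.1% of it in control 1 and 2, and 46.2% and 44.7% in CysNO 1 and 2. The photosystem I subunits made up 29.9% and 29.3% in the controls and 26.7% and 27.9% in CysNO. Genes of the oxygen-evolving complex made up 12.0% and 10.4% in the controls and 9.27% and 9.84% in CysNO. In each of these 3 groups of genes the control and CysNO shares did not overlap, with the Lhcb share higher in CysNO and both other shares lower. The controls differed from each other by 4.65 percentage points in the Lhcb share, more than the 1.54 points between the nearest libraries of the groups. The Lhca share was 7.78% and 6.83% in the controls and 8.97% and 8.28% in CysNO, also without overlap. The share of the electron carriers was 8.38% and 7.56% in the controls and 6.65% and 6.72% in CysNO, again without overlap. Together with PsbS these shares make up 100% of the sum in each library, so a rise in some lowers the others. They are therefore not separate results. No test was made on them, because an exact permutation of 2 against 2 libraries cannot go below p = 0.333.

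Among the Lhcb genes, which encode the antenna of photosystem II, 8 of 9 had a log2 fold change below 0 (median -0.27, range -1.11 to 0.03). The groups overlapped in 7, and in 2 both CysNO libraries lay below both controls, where 24.9% of all loci did. The Lhcb median was 0.01 without control 1, -0.12 without CysNO 1, -0.42 without CysNO 2 and -0.55 without control 2. Lhcb1 and Lhcb2, with Lhcb3, form the trimeric major antenna, whereas Lhcb4 (CP29), Lhcb5 (CP26) and Lhcb6 (CP24) are monomeric linkers between the trimers and the core. The most abundant of all 31 genes was the Lhcb1 gene LOC_Os01g41710 (CAB2R in the gene table). It lies on chromosome 1, bases 23606304 to 23607539, plus strand, with no rice build named by the sources. It had 2320 and 2110 FPKM under buffer and 1280 and 1997 under CysNO. Both CysNO values were below both controls, and CysNO 2 was close to control 2. Its log2 fold change was -0.47 with SE 0.47 (adjusted p by limma = 0.714).

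The other Lhcb1 genes were less abundant. LOC_Os01g52240 had 871 and 684 FPKM under buffer and 452 and 715 under CysNO, and LOC_Os09g17740 (CAB1R) read 436 and 256 against 279 and 288. The groups overlapped in both. LOC_Os01g41710 held 64.0% and 69.2% of the FPKM of the 3 Lhcb1 loci in the controls and 63.6% and 66.6% in CysNO, so the order of the copies was the same in both groups. These copies are similar in sequence, and the sources do not say how the authors' counting divided shared reads, so their separate levels are uncertain.

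Lhcb2, Lhcb3 and Lhcb6 showed the smallest differences of the antenna genes of photosystem II. Lhcb6 (LOC_Os04g38410) had 737 and 574 FPKM under buffer and 562 and 699 under CysNO (log2 fold change -0.05 with SE 0.36; adjusted p by limma = 0.968). Its 95% interval ran from -0.90 to 0.80. Lhcb3 (LOC_Os07g37550) had 294 and 246 FPKM under buffer and 310 and 244 under CysNO. It was 1 of 3 genes in which CysNO 1 read above CysNO 2, and its log2 fold change was 0.03 ± 0.31 (SE), -0.18 with quantile normalization and -0.01 with the rest of the transcriptome set to a common total. Lhcb2 (LOC_Os03g39610; RCABP89) read 460 and 297 FPKM against 297 and 373. Lhcb4 (LOC_Os07g37240; RCABP69) had 581 and 360 FPKM under buffer and 299 and 436 under CysNO, and Lhcb5 (LOC_Os11g13890) 516 and 348 against 316 and 391. In Lhcb2, Lhcb4 and Lhcb5 control 1 stood above the other 3 libraries, and the groups overlapped.

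Lhcb7 (LOC_Os09g12540, chromosome 9, bases 7184218 to 7187146, plus strand) differed from the other Lhcb genes in level and in its difference. Lhcb7 is a rarely expressed relative of the antenna proteins. It had 33.4 and 18.8 FPKM under buffer and 9.10 and 13.5 under CysNO, with no overlap between groups. The means were 26.1 ± 10.3 FPKM (SD, n = 2) in control and 11.3 ± 3.14 (SD, n = 2) in CysNO. The log2 fold change was -1.11 ± 0.35 (SE) with an adjusted p of 0.151 by limma (0.0156 before adjustment). It was -0.71 to -1.51 over the fits with 1 library left out. A pairing of control 1 with CysNO 2 called 1206 of all 21123 tested loci lower. The adjusted p of Lhcb7 by limma ran from 0.0504 to 0.6 over 12 alternatives, and one more, which paired control 1 with CysNO 2 and was chosen after seeing the data, called it lower.

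**Figure D3:**
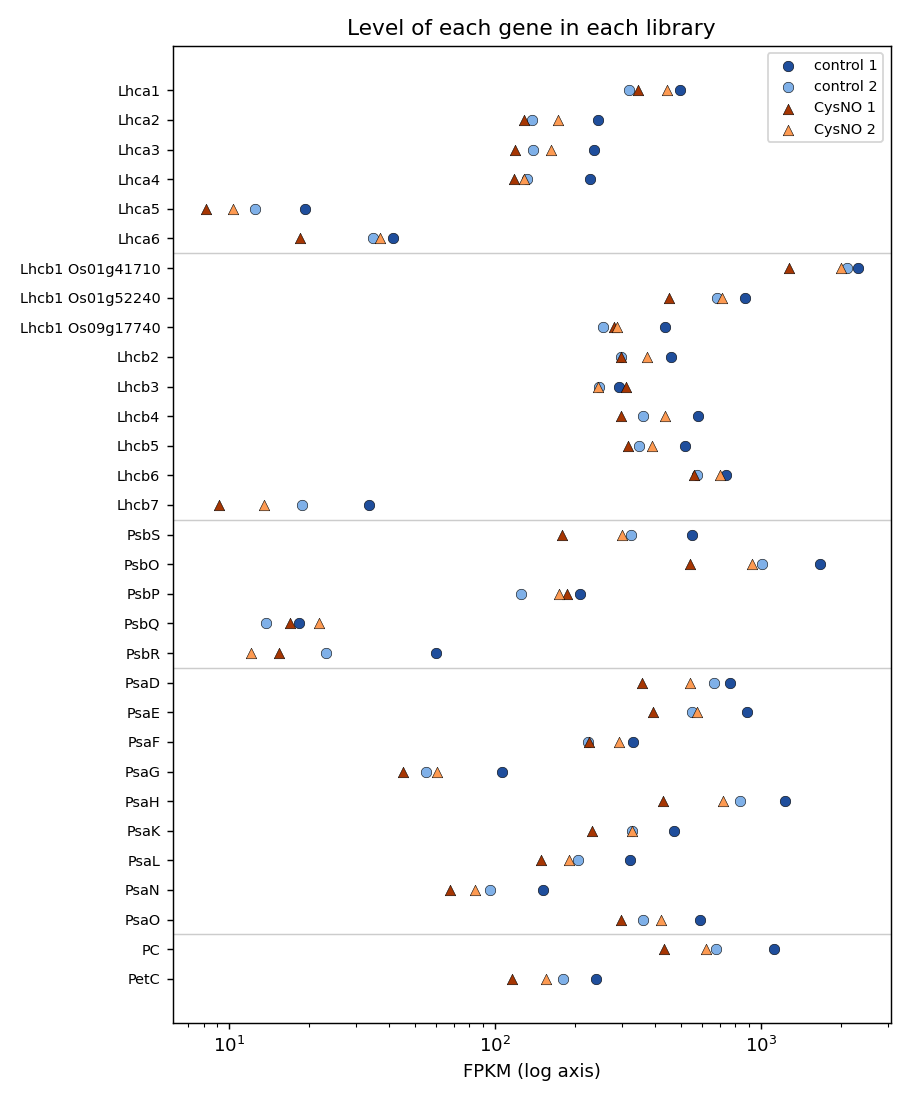
FPKM (log axis) of each gene in each of the 4 libraries, with controls as circles, CysNO libraries as triangles and grey lines between complexes. The mean over 4 libraries runs from 12.5 FPKM (Lhca5) to 1927 (Lhcb1 LOC_Os01g41710), and control 1 lies farthest to the right for 29 of 31 genes.

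The 6 Lhca genes, whose products form the antenna belt of photosystem I, all had a log2 fold change below 0 (median -0.43, range -0.70 to -0.02). In 4 of the 6 the groups overlapped, and in 2 both CysNO libraries lay below both controls, where 24.9% of all loci did. The Lhca median was -0.05 without control 1, -0.12 without CysNO 1, -0.57 without CysNO 2 and -0.73 without control 2. Lhca1 (LOC_Os06g21590), the most abundant, had 495 and 319 FPKM under buffer and 345 and 445 under CysNO (log2 fold change -0.02 with SE 0.36; adjusted p by limma = 0.987). Lhca2, Lhca3 and Lhca4 were of similar abundance to each other, with control means of 191 ± 75.1, 187 ± 68.5 and 180.3 ± 67.7 FPKM and CysNO means of 151 ± 31.5, 141 ± 30.4 and 123 ± 7.30 (SD, n = 2). In each of these 3, control 1 stood at 1.70 to 1.77 times control 2. Lhca5 and Lhca6 encode antenna proteins that are present at far lower amounts than Lhca1 to Lhca4 and, in Arabidopsis, link photosystem I to the NADH dehydrogenase-like complex. Lhca5 (LOC_Os02g52650) was the least abundant of the 31 genes and had 19.2 and 12.5 FPKM under buffer and 8.14 and 10.3 under CysNO. Its groups did not overlap (log2 fold change -0.70 with SE 0.31; adjusted p by limma = 0.295). Lhca6 (LOC_Os09g26810) had 41.2 and 34.8 FPKM under buffer and 18.4 and 36.8 under CysNO, so that a single library, CysNO 1, stood apart at the low end.

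PsbS, which senses lumen acidity and switches the antenna to heat dissipation, had 552 and 324 FPKM under buffer and 179 and 301 under CysNO. The groups did not overlap, yet CysNO 2 and control 2 lay close to each other, and the log2 fold change of PsbS (LOC_Os01g64960) was -0.86 with SE 0.41 (adjusted p by limma = 0.33). Over the fits with 1 library left out it ran from -1.25 to -0.48.

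The 4 genes of the oxygen-evolving complex had log2 fold changes on both sides of 0. PsbO, the extrinsic protein that stabilises the manganese cluster, was the second most abundant of the 31 genes. PsbO (LOC_Os01g31690) had 1667 and 1012 FPKM under buffer and 544 and 928 under CysNO (log2 fold change -0.87 with SE 0.46; adjusted p by limma = 0.397), with no overlap between groups. PsbP and PsbQ, which help retain calcium and chloride at the cluster, had log2 fold changes above 0. PsbP (LOC_Os07g04840) had 208 and 125 FPKM under buffer and 187 and 174 under CysNO, with both CysNO libraries between the controls. Its log2 fold change was 0.16 with SE 0.33 (adjusted p by limma = 0.878), and with quantile normalization it was -0.02.

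PsbQ (LOC_Os07g36080; OEE3; chromosome 7, bases 21573442 to 21575040, plus strand) had 18.3 and 13.7 FPKM under buffer and 16.9 and 21.8 under CysNO. It had the highest log2 fold change of the 31, 0.26 with SE 0.29 (adjusted p by limma = 0.742). Its level was far below those of PsbO and PsbP in every library. The locus overlaps LOC_Os07g36090 on the opposite strand, which had 28.4 and 29.6 FPKM under buffer and 28.7 and 23.3 under CysNO. The sources do not say whether strand was used in counting, and without it reads of these loci cannot be told apart. In 3 more genes (the Lhcb1 gene LOC_Os01g52240, PsaF and PsaG) an opposite-strand locus overlaps, with at most 4.42 FPKM in any library.

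PsbR (LOC_Os07g05360, chromosome 7, bases 2452961 to 2455612, plus strand), a small subunit on the lumenal side of photosystem II that helps assemble the oxygen-evolving proteins, showed the largest difference of the 31. It had 60.0 and 23.2 FPKM under buffer and 15.4 and 12.1 under CysNO, with control 1 far above the other 3 libraries and no overlap between groups. The means were 41.6 ± 26.0 FPKM (SD, n = 2) in control and 13.7 ± 2.33 (SD, n = 2) in CysNO. The log2 fold change was -1.39 ± 0.43 (SE), with an adjusted p of 0.142 by limma (0.014 before adjustment). Without control 1 it was -0.73. Without control 2 it was -2.06 and passed (limma, adjusted p = 0.00956), in a fit where the lone control is assumed to vary like the CysNO libraries and where 2.29% of all loci are called lower. Over the same 12 alternatives as for Lhcb7, the adjusted p of PsbR by limma ran from 0.00956 to 0.514, and the pairing of control 1 with CysNO 2 called it lower too. That pairing called 1206 of all 21123 tested loci lower. A locus listed as a further PsbR gene, LOC_Os08g10020, was far more abundant, with 1132 and 603 FPKM under buffer and 336 and 544 under CysNO (log2 fold change -0.95 with SE 0.45, adjusted p by limma = 0.33). The PsbR described here is thus the less abundant of the listed loci.

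All 9 genes of photosystem I subunits had a log2 fold change below 0 (median -0.55, range -0.87 to -0.08). In 5 (PsaD, PsaH, PsaK, PsaL and PsaN) both CysNO libraries lay below both controls, where 24.9% of all loci did. The photosystem I median was -0.26 without control 1, -0.33 without CysNO 1, -0.79 without CysNO 2 and -0.89 without control 2. Among single genes the same fits gave -1.01 to -0.07 for PsaG and -0.73 to -0.02 for PsaO. PsaH (LOC_Os05g48630), a subunit at the docking side for mobile light-harvesting complexes, was the most abundant. It had 1235 and 836 FPKM under buffer and 430 and 722 under CysNO (log2 fold change -0.87 with SE 0.43; adjusted p by limma = 0.356). PsaD (LOC_Os08g44680), a stromal subunit that docks ferredoxin, had 768 and 666 FPKM under buffer and 358 and 544 under CysNO. For PsaD the controls were close to each other, at a ratio of 1.15, and both CysNO values were lower, yet the CysNO libraries differed by 1.52 times (log2 fold change -0.70 with SE 0.37; adjusted p by limma = 0.398). PsaE, the other stromal subunit at the ferredoxin side, read 885 and 549 FPKM against 393 and 577, with overlap.

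PsaL (LOC_Os12g23200), which borders PsaH and PsaO, had 321 and 206 FPKM under buffer and 148 and 190.0 under CysNO. PsaN, on the lumenal side, had 151 and 95.4 FPKM under buffer and 67.5 and 84.0 under CysNO (log2 fold change -0.67 with SE 0.32; adjusted p by limma = 0.337). PsaO read 590.3 and 359.5 FPKM against 298 and 422, with overlap. PsaK, which like PsaG anchors Lhca proteins to the core, had 471 and 328 FPKM under buffer and 232 and 326 under CysNO, so that CysNO 2 and control 2 were nearly equal. PsaG, the least abundant of the 9, had 106 and 55.0 FPKM under buffer and 45 and 60.5 under CysNO, with overlap. PsaF (LOC_Os03g56670), which binds plastocyanin, showed the smallest difference of the 9. It had 330.2 and 224 FPKM under buffer and 225 and 294 under CysNO (log2 fold change -0.08 with SE 0.34; adjusted p by limma = 0.947).

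The electron carriers between the photosystems both read lower in CysNO without overlap, where 24.9% of all loci did. Plastocyanin (PETE, LOC_Os06g01210), the copper protein that feeds photosystem I, had 1120.4 and 678 FPKM under buffer and 431 and 620.0 under CysNO (log2 fold change -0.75 with SE 0.42; adjusted p by limma = 0.416). The Rieske gene (petC, LOC_Os07g37030), for the iron-sulfur protein of the cytochrome b6f complex, had 240.0 and 180.0 FPKM under buffer and 116 and 156 under CysNO (log2 fold change -0.62 with SE 0.31; adjusted p by limma = 0.36). Neither passed the test.

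**Figure D4:**
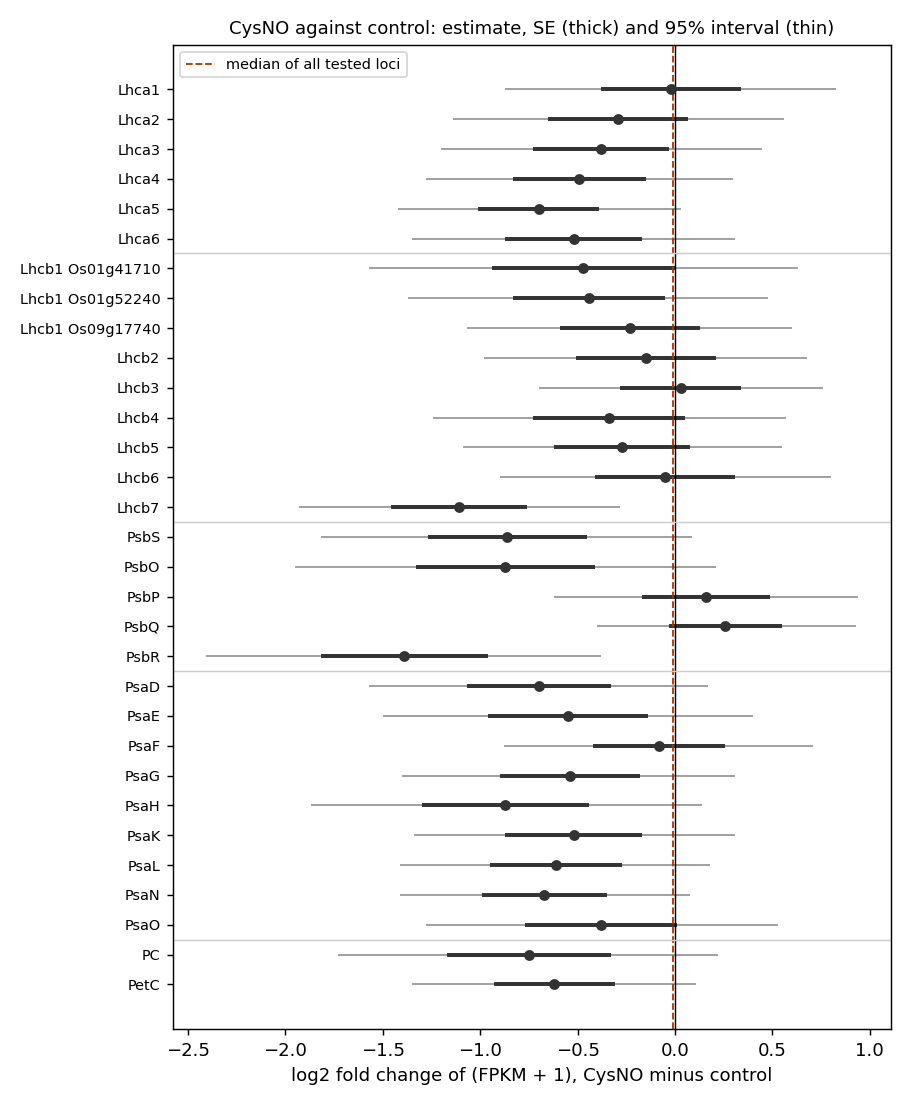
Log2 fold change of FPKM + 1, CysNO minus control, for each gene (point), with its standard error (thick line) and 95% interval (thin line) from the fit over all loci. The intervals of Lhcb7 and PsbR exclude 0 before adjustment and the other 29 include it, while 28 of 31 points lie below 0, where the dashed line marks the median of all tested loci (-0.01).

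The precision of 2 libraries per group sets what these values can show. The 95% intervals of 29 genes included 0, and 22 of these also included -1, a 2-fold lower level in CysNO. The intervals of Lhcb7 and PsbR included -1 and excluded 0. For 7 genes the interval lay wholly above -1, and 0 of the 31 intervals reached 1, a 2-fold higher level. These intervals are not adjusted for the number of genes.

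To describe the balance among the 31 genes within a library, the value of each gene was set against the median gene of its library on the log2 scale, which takes out a level shared by all 31. On that scale both CysNO libraries lay below both controls in 13 genes and above them in 6, and they overlapped in 12. Set against the same median gene, 7.84% of all tested loci lay below in this way and 28.3% above, where 24.9% and 21.5% did without centring. The 31 genes mostly read lower in CysNO, so setting other loci against their median raises those loci in CysNO relative to control. These shares are therefore no baseline for the 13 and the 6. Centring on the median gene puts some of the 31 above it and others below it in every library. The 6 with higher relative values in CysNO were Lhca1, Lhcb2, Lhcb6, PsbP, PsbQ and PsaF. Among the 13 with lower ones were PsbR (-1.04), Lhcb7 (-0.75), PsbS, PsbO and PsaH (-0.51 each), plastocyanin (-0.40) and the Rieske gene (-0.27). PsbO, for example, stood 1.93 and 1.98 above the median gene in the controls and 1.23 and 1.66 above it in CysNO. PsbP stood at -1.06 and -1.03 relative to the median gene in the controls and at -0.31 and -0.75 in CysNO. These relative values are a description, with no test.

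Abundant loci as a whole did not lean the same way. Of the tested loci with a mean of at least 100 FPKM, 42.9% had a log2 fold change below 0, 0.828% were called lower and the median was 0.09. Of the 24 genes of this set that reach that level, 22 were below 0, with a median of -0.41. Both CysNO libraries lay below both controls in 10 of these 24, against 21.4% of the abundant loci.

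Other nuclear genes of thylakoid function were read from a list of 17 loci, drawn up from general knowledge with earlier results of these data known. The list held a further PsbS and PsbR locus, PsbY, chloroplast ATP synthase, ferredoxin and its reductases, and the GLK factors. It also held proteins of state transition, thylakoid targeting and cyclic electron flow, and early light-induced proteins. Of the 17, all tested, 0 passed in either direction and 7 had an unadjusted p under 0.05, against 18.1% of all loci. The log2 fold change was below 0 in 16 (median -0.84, range -1.66 to 0.49), and control 1 was the highest library in 16. Both CysNO libraries lay below both controls in 12 of the 17, where 24.9% of all loci did. GLK1 (LOC_Os06g24070) and GLK2 (LOC_Os01g13740), transcription factors known to activate antenna and chlorophyll genes, were among these 12. So were LOC_Os07g08160 and LOC_Os08g45190, with lower log2 fold changes than either (-1.66 and -1.60, adjusted p by limma = 0.072 and 0.0686). The more abundant loci LOC_Os03g17070, LOC_Os08g01380 and LOC_Os02g51470 had log2 fold changes of -0.84, -0.29 and -0.47 (adjusted p by limma = 0.367, 0.701 and 0.586). In LOC_Os03g03990 both CysNO libraries lay above both controls (log2 fold change 0.49, adjusted p by limma = 0.505). GLK1 had 40.3 and 31.3 FPKM under buffer and 16.6 and 9.89 under CysNO (log2 fold change -1.40 with SE 0.32; adjusted p by limma = 0.059). With a filter of 5 FPKM its adjusted p by limma was 0.0406, the lowest over the same 12 alternatives, where the highest was 0.283. The pairing of control 1 with CysNO 2, which called 1206 of all 21123 tested loci lower, also called GLK1 and GLK2 lower. GLK2 had 66.6 and 44.0 FPKM under buffer and 23.8 and 26.5 under CysNO (log2 fold change -1.08 with SE 0.29; adjusted p by limma = 0.0948). For both, the controls differed from each other by less than they differed from CysNO, with ratios of control 1 to control 2 of 1.29 and 1.51. LFNR1 (LOC_Os06g01850), a leaf ferredoxin-NADP reductase gene, had 169 and 105 FPKM under buffer and 50.4 and 94.9 under CysNO (limma, adjusted p = 0.266).

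Markers of leaf and of other tissue were read in the same libraries. The 3 loci of 4 listed for the small subunit of Rubisco that were found summed to 2184 and 1371 FPKM in the controls and to 808 and 1173 in CysNO, high in all 4 libraries of this leaf RNA and highest in control 1. The 3 root markers summed to 11.8 and 11.6 FPKM in the controls, 9.90 in CysNO 1 and 123 in CysNO 2, where LOC_Os02g44310 alone gave 96.4. The root silicon channel gene Lsi1 read 10.2 and 7.13 FPKM in the controls, 5.41 in CysNO 1 and 22.3 in CysNO 2, and Lsi2 was listed at 0 in control 1 and read 4.46 in CysNO 2. The shoot meristem gene OSH1 had 3.48 and 6.68 FPKM under buffer and 2.59 and 1.17 under CysNO. The part of tissue composition in the differences of the 31 genes was not tested.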

How the data were processed

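The deposited values are FPKM, per the file headers, for 57995 loci with coordinates in each of 4 libraries. Poly(A) TruSeq libraries were read as 100 bp pairs, per the labels' protocols. Bowtie 0.12.2 and mm8, a mouse build at odds with rice loci, are named in the submitters' processing notes. For the counting program, annotation and true build, nothing is given in the sources used here. Libraries summed to between 687469 and 732401 FPKM, and read depth is unknown.

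The 21123 loci that reached 1 FPKM in 2 or more of the 4 libraries were fitted as log2(FPKM + 1) by limma 3.58.1 (R 4.3.3) with a mean-variance trend. The two-sided test of CysNO against control was adjusted by Benjamini-Hochberg over all these loci at 0.05, with 2 residual and 5.36 prior degrees of freedom. Fold changes are on that scale, which understates changes of low loci. The script was tested on simulated data. The 31 genes and the lists were chosen with earlier results of these data known, and all 31 are named. Names were looked up in a gene table of the assembly ASM3414082v1, used for names only. Listed loci without a name in the files or that table enter counts and sums, or are given by locus identifier, and 1 Rubisco locus was not analysed here. Alternatives were other scalings, pseudocount, filters, thresholds, a replicate block and each library left out. The 12 alternatives behind the ranges of adjusted p also include the fit without loci listed at 0 in any library. That fit, like the crossed pairing, was added after seeing the data.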

Additional observations from a re-analysis of the deposited data

How the results depend on the processing

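Each of the 31 genes kept its side of the threshold under median centring, quantile normalization, a common total for the other loci, a pseudocount of 0.1, no filter, a filter of 5 FPKM and the replicate block, which called 0 of them. The exceptions to the direction were Lhcb3, at -0.18 with quantile normalization and -0.01 with the common total, and PsbP, at -0.02 with quantile normalization. Leaving out 1 library at a time called 0 to 1 lower (PsbR, without control 2) and 0 higher. The log2 fold changes that crossed 0 there ran from -0.34 to 0.30 for Lhca1, -0.70 to 0.12 for Lhca2, -0.76 to 0.005 for Lhca3, -0.62 to 0.15 for the Lhcb1 gene LOC_Os09g17740, -0.47 to 0.16 for Lhcb2, -0.14 to 0.21 for Lhcb3, -0.68 to 0.01 for Lhcb4, -0.55 to 0.01 for Lhcb5, -0.23 to 0.13 for Lhcb6, -0.20 to 0.53 for PsbP and -0.36 to 0.20 for PsaF. The median of PsbS and the oxygen-evolving genes ran from -1.23 to -0.48 (-0.86 with all libraries). Of the 17 other thylakoid loci, 2 were called lower with a filter of 5 FPKM (GLK1 and LOC_Os08g45190), where 246 of 14629 loci were. Without loci listed at 0 in any library (added after seeing the data) 1 was (GLK1), where 264 of 20708 loci were. With 1 library left out, calls among the 17 came only from the fit without control 2. That fit rests on control 1 alone, the highest library in 16 of the 17.

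Over all tested loci, 691 were called higher and 202 lower. The counts were 381 and 68 with median centring, 393 and 87 with quantile normalization, 2 and 0 with no filter, 172 and 14 at an adjusted p under 0.01, and 53 and 2 with the replicate block. Deviations of same-numbered libraries from their group means correlated weakly and negatively (-0.186 over tested loci), and these libraries were not taken as pairs. With the common total 125 were lower. Leaving out 1 library gave 0 to 816 higher and 0 to 484 lower. The cause of these shifts was not tested. A crossed pairing of control 1 with CysNO 2, added after seeing the data, called 1625 of 21123 loci higher and 1206 lower. Among them were 2 of the 31 genes (PsbR and Lhcb7) and 8 of the other thylakoid loci, all lower. Given the negative correlation above, this pairing takes spread between libraries out of the error, so its calls are no separate support. Its prior degrees of freedom were infinite, so each locus took the spread of the mean-variance trend.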
